A study of Mus musculus with 15 samples.

Results

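Trophoblast genes were followed here during the exit of mouse embryonic stem cells from the naive state, with and without a knockout of the autophagy gene Atg7. The members are 10 genes named for this purpose, Cdx2, Elf5, Gata2, Gata3, Hand1, Krt7, Tfap2a, Tfap2c, Tead4 and Esx1, out of 24982 gene symbols in the deposited tables. They were chosen by name with earlier results of these data known, as were the other lists used below, and all 10 were found. RNA-seq of polyadenylated RNA was carried out on the cell line E14TG2, a mouse embryonic stem cell line, as it was driven towards epiblast-like cells (EpiLCs). The 15 libraries fell into 5 groups of 3. The ESC group was taken at day 0 and is labelled as control genotype. Control and Atg7 KO cells were each taken at day 2 and at day 4. No day 0 library of the KO line was analysed here, so a difference between KO and control cells present before the transition cannot be told apart from one that arose during it. The ESC cultures grew on a layer of inactivated fibroblasts with LIF, PD0325901 and CHIR99021, and the transition was run on fibronectin with activin A and bFGF. How the KO line was made, which exon was altered and whether it is 1 clone were not given in the sources used here. Nor do the labels say if replicate libraries derive from separate cultures, so p-values set group differences against the spread between these libraries, which may be technical.

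Trophoblast is the outer lineage of the blastocyst that builds the fetal part of the placenta. In the embryo the factor TEAD4, working with the coactivator YAP in outer cells in which Hippo signalling is low, turns on CDX2 and GATA3, and CDX2, ELF5, EOMES and TFAP2C maintain trophoblast stem cells. HAND1 and GATA2 act in trophoblast giant cells and ESX1 in the labyrinth, while keratins such as KRT7 are structural markers of trophoblast epithelium. Embryonic stem cells normally hold this programme low through OCT4 (Pou5f1) and DNA methylation, and several members have roles outside trophoblast, in germ cells, mesoderm or surface ectoderm.

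Levels below are CPM, counts scaled to the same effective library size, as mean ± SD over 3 libraries. Differences between groups are given as log2 fold changes ± standard error, estimated with 1 edgeR quasi-likelihood model fitted to all 15 libraries, and a gene is said to have risen or fallen where its Benjamini-Hochberg adjusted p over all 15696 tested genes was under 0.05. Total counts lay between 14059237 and 23371546 per library. Atg7 itself was at 13.6 ± 1.27 CPM in d2-Control and 7.16 ± 0.349 in d2-Atg7 KO libraries, and at 19.5 ± 0.379 and 11.9 ± 1.28 at day 4 (n = 3 each); the transcript was lowered in the KO line at both days and not removed. Levels of 10 fibroblast genes differed between libraries, not all in the same direction. From ESC to d2-Control 7 fell and 1 rose, Thy1, from 5.19 ± 3.43 to 14.4 ± 0.554 CPM. The summed level of 10 fibroblast genes was 1780, 915 and 219 CPM in ESC replicates 1, 2 and 3, between 224 and 261 in d2-Control, between 413 and 770 in d2-Atg7 KO, between 61.9 and 68.6 in d4-Control and between 104 and 155 in d4-Atg7 KO libraries, and none of the 10 was at 0 in a whole group. ESC replicate 3 and d2-Atg7 KO replicate 2 stand apart within their groups by this measure, and calls of members that change when 1 or both are left out are given with both values.

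Of the 10 members, 8 had enough counts to be tested. In the control cells the set split as the cells left day 0: Hand1, Esx1 and Gata3 were far higher at day 2, Tfap2c was far lower, and the others moved less. In Atg7 KO cells Hand1, Krt7, Gata2, Gata3 and Esx1 were lower than in control cells at day 2, while Tfap2c and Tfap2a were higher. By day 4 Hand1, Krt7, Gata2 and Gata3 were still lower, and the differences in Tfap2c, Tfap2a and Esx1 did not pass the test at that day. Tested directly, the change of the KO difference between the days passed for Tfap2c and Esx1 and not for Tfap2a. Because these are bulk libraries, fewer cells expressing a gene and less RNA per cell cannot be told apart.

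**Figure D1:**
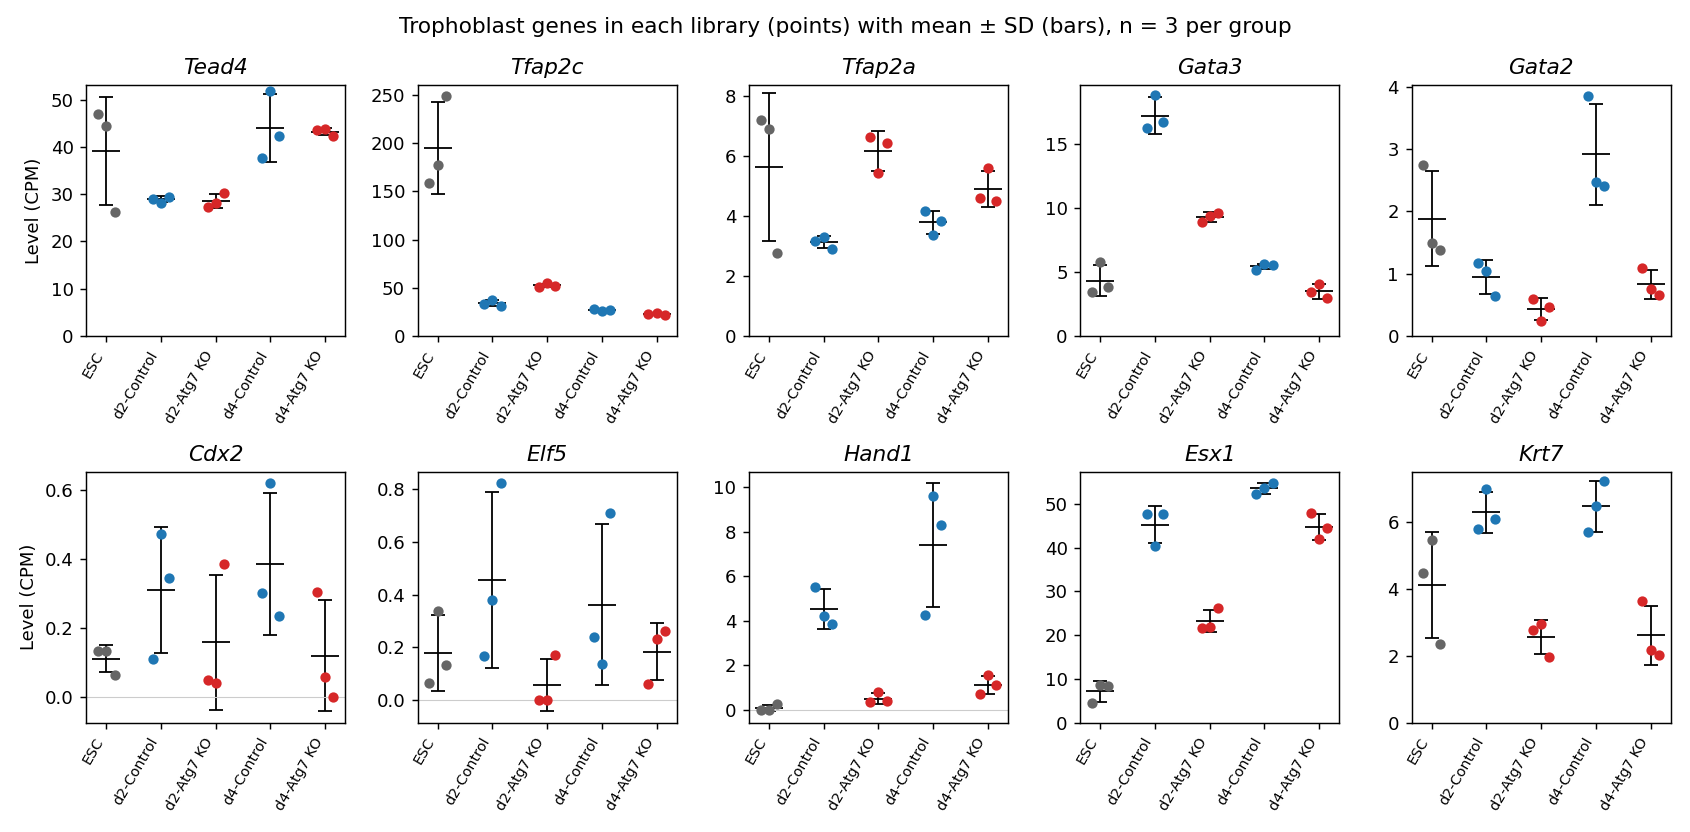
Level of each of the 10 trophoblast genes (vertical axis, CPM, its own linear scale in each panel) in each library (points), with the mean and SD of each group of 3 (horizontal and vertical bars); grey is ESC, blue control and red Atg7 KO. Hand1 and Krt7 lie lower in all KO libraries than in all control libraries of the same day, whereas the Tead4 points of KO and control overlap.

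Compared per kb of exon, the scale that allows genes to be set side by side, Tfap2c was the most abundant member in ESCs at 53 ± 12.9 CPM per kb, followed by Tead4 at 10.9 ± 3.16 and Esx1 at 3.61 ± 1.19. Tfap2a and Gata3 came next, at 1.15 ± 0.504 and 1.09 ± 0.313 CPM per kb, and did not differ beyond their spread. Krt7 (0.584 ± 0.225), Gata2 (0.348 ± 0.141), Cdx2 (0.0495 ± 0.0176), Hand1 (0.044 ± 0.0763) and Elf5 (0.0305 ± 0.0241) made up the lower end. By day 2 the order in control cells was led by Esx1 at 22.8 ± 2.14 CPM per kb, ahead of Tfap2c (9.31 ± 0.873) and Tead4 (8.02 ± 0.175). Hand1 had moved from the lower end to the fifth place, at 2.27 ± 0.443 CPM per kb, behind Gata3 at 4.33 ± 0.356. Its place within that lower end is not settled, as Cdx2, Hand1 and Elf5 had 5, 4 and 8 counts in the ESC group and did not differ beyond their spread. In d2-Atg7 KO libraries Tfap2c, at 14.3 ± 0.518 CPM per kb, stood above Esx1, at 11.7 ± 1.28, the reverse of the control order at that day. At day 4 Esx1 led in both genotypes, at 27 ± 0.632 CPM per kb in control and 22.5 ± 1.49 in KO libraries.

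**Figure D2:**
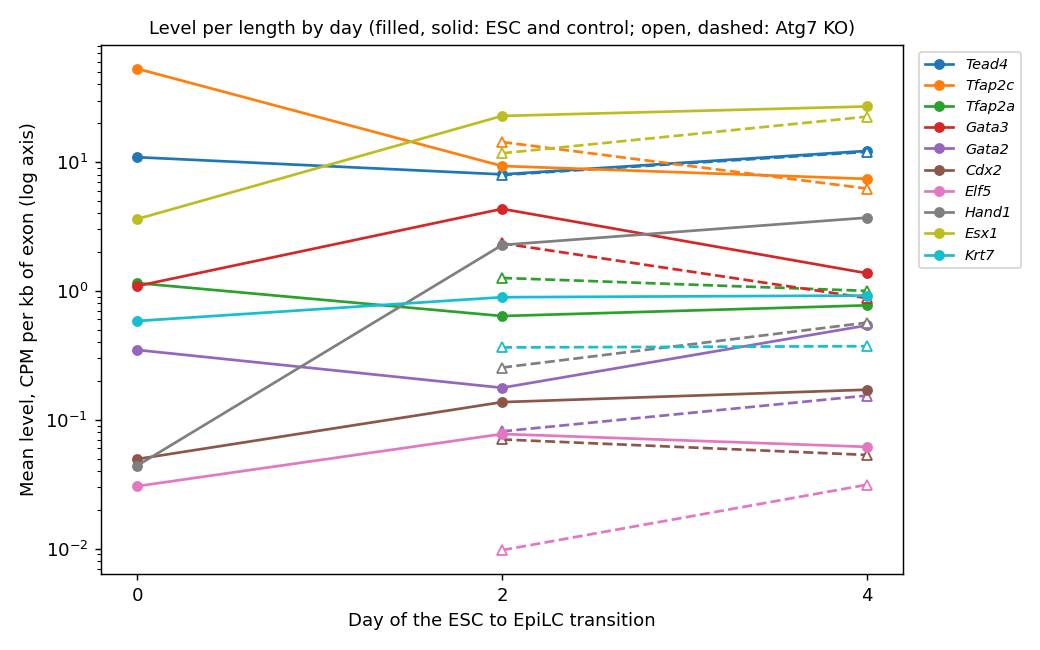
Mean level of each member in CPM per kb of exon (vertical log axis) by day (horizontal axis); filled circles with solid lines are ESC and control groups, open triangles with dashed lines Atg7 KO groups, each point the mean of 3 libraries. The steep rise of Hand1 and the fall of Tfap2c after day 0 cross the other lines, and Cdx2 and Elf5 stay at the bottom.

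The promoters of the members were inspected for motifs of the factors of this programme, since several members encode such factors and their levels moved in opposite directions. RefSeq windows on GRCm38.p6, covering the 250 bases before an annotated start, were matched by symbol for 7 of the 10 members, giving 10 windows; Hand1, Tfap2c and Tead4 had no entry. Short motifs were searched on both strands, and no match overlapped another. The TEAD motif GGAATG was held by 12.6% of 32851 windows of that length. The GATA motif AGATAA was held by 9.99%, the AP-2 motif GCCNNNGGC, which reads the same from either strand, by 13.7%, and the octamer ATGCAAAT, which OCT4 binds, by 1.6%. The windows of the members that fell together in the KO are printed with Tfap2a, which rose at day 2, and Cdx2, which was near 0 counts; bases inside annotated untranslated regions were removed, and capitals mark the AP-2 matches of Gata3 and Krt7 and the octamer match of Cdx2.
Gata3 (minus strand, chr2:9878601-9878850): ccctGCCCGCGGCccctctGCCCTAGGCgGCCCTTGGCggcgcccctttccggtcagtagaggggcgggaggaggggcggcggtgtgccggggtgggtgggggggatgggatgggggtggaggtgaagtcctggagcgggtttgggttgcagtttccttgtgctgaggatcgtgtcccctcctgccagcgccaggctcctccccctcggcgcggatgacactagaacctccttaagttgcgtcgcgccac
Krt7 (plus strand, chr15:101412153-101412401): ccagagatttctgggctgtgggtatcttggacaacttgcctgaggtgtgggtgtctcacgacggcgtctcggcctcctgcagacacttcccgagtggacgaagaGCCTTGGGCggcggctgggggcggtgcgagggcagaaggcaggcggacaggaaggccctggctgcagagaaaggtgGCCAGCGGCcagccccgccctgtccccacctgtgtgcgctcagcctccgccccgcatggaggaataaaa
Gata2 (plus strand, chr6:88193641-88193890): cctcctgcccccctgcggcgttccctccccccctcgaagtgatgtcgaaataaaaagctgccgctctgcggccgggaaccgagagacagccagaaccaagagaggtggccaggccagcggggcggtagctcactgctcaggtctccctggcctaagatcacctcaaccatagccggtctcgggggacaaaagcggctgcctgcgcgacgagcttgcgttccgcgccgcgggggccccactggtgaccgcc
Esx1 (minus strand, chrX:137120327-137120576): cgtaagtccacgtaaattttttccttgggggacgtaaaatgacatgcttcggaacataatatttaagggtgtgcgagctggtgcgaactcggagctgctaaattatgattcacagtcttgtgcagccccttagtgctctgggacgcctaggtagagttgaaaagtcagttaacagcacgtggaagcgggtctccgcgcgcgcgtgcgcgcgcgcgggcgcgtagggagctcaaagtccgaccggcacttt
Tfap2a (minus strand, chr13:40734921-40735170): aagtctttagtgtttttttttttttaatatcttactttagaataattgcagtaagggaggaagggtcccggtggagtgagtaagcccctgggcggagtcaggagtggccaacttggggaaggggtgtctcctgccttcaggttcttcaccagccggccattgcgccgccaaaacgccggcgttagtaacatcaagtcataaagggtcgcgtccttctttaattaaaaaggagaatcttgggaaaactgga
Cdx2 (minus strand, chr5:147307271-147307499): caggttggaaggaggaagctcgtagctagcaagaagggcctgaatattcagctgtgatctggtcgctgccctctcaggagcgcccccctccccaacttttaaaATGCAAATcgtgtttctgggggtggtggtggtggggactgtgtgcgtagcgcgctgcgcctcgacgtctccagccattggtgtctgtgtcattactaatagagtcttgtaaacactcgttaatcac
Gata3 had 3 AP-2 matches in its window and Krt7 had 2, and the printed windows of Gata2, Esx1 and Tfap2a had no match to any of the 4 motifs. A second Gata2 window (chr6:88198414-88198663), not printed, held 1 TEAD and 1 AP-2 match, and the first of the 2 Elf5 windows held 1 TEAD match. The Cdx2 window had 1 more AP-2 match among the bases left out. Letters of this kind are a description of the window and not evidence of binding, and their absence says nothing of a factor. The 250-base windows of Gata3 and Krt7 were 70% and 66% G or C, against a median of 52.4% over all windows.

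TEAD4 is the DNA-binding partner of YAP and the factor at the top of the trophoblast programme. Its gene lies on the minus strand at chr6:128224288-128300823 (GRCm38). Tead4 was at 47, 44.5 and 26.2 CPM in the ESC libraries, 29, 28.2 and 29.4 in d2-Control, 27.3, 28.1 and 30.2 in d2-Atg7 KO, 37.7, 51.8 and 42.3 in d4-Control, and 43.5, 43.7 and 42.3 in d4-Atg7 KO. The control groups did not overlap between day 2 and day 4, the KO and control libraries overlapped at both days, and the third ESC library was the lowest of all 15. Between KO and control the log2 difference was -0.02 ± 0.16 at day 2 (edgeR adjusted p = 0.945, 95% interval -0.36 to 0.32) and -0.02 ± 0.15 at day 4 (edgeR adjusted p = 0.928, interval -0.34 to 0.3). With a fibroblast score as a covariate these became -0.35 (edgeR adjusted p = 0.0346) and -0.39 (edgeR adjusted p = 0.0229); over all 17 alternatives the adjusted p ranged from 0.0346 to 1 at day 2 and from 0.0229 to 1 at day 4. That score ran from 5.41 to 5.69 in d2-Control and from 6.51 to 7.49 in d2-Atg7 KO libraries. At day 4 it ran from 2.79 to 3.04 in control and from 4.28 to 4.74 in KO libraries, and ESC libraries ranged from 5.86 to 8.93. Groups that are compared did not overlap in the score, so it is confounded with group. Values with this covariate, here and below, are not corrected differences. In control cells Tead4 rose from day 2 to day 4 by 0.6 ± 0.16 (edgeR adjusted p = 0.00264), and in KO cells it rose by the same 0.6 ± 0.16 (edgeR adjusted p = 0.00309). It was lower at day 2 than in ESCs by -0.44 ± 0.16 (edgeR adjusted p = 0.0191), with a value of 0.08 once the fibroblast score was in the model, so that the direction turned; the adjusted p ranged from 1.36e-06 to 0.957 over the 17 alternatives. Genes of chromosome 6 as a whole were higher in d4-Control than in d2-Control libraries, with a median log2 difference of 0.39 over 773 genes, and Tead4 and Gata2 lie on that chromosome; the part of this shift in their rise was not tested.

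The Hippo pathway and its targets were followed from lists of 17 and 9 genes, all of which were tested. In d2-Atg7 KO cells 8 of the 17 Hippo genes rose and 5 fell (background: 41.8% of all tested genes passed at day 2, 20.4% higher and 21.4% lower). The scaffold Nf2, which activates the LATS kinases, rose by 0.37 ± 0.05 (edgeR adjusted p = 1.4e-05), as did the YAP-binding protein gene Amot by 0.76 ± 0.13. The TEAD cofactor gene Vgll4 fell by 0.48 ± 0.09 on the log2 scale, and the kinase adaptor gene Mob1b fell by 0.56 ± 0.09. At day 4, 6 rose and 4 fell (background 37.6%, 19.5% higher and 18.1% lower). Tead1, a paralogue of Tead4, rose by 0.66 ± 0.05 (edgeR adjusted p = 3.01e-07), and Tead3, another paralogue, fell by 0.58 ± 0.11. Among the 9 genes known as YAP and TEAD targets, none rose, 3 fell at day 2 and 4 fell at day 4, with list medians of -0.22 and -0.4 against -0.01 over all genes at each day. Cyr61 (Ccn1), a secreted matrix protein, fell by 0.59 ± 0.08 at day 2 and by 1.68 ± 0.09 at day 4, and Ctgf, its relative, fell by 1.59 ± 0.11 at day 4 with a day 2 difference of -0.04 ± 0.1 that did not pass.

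AP-2 gamma, the product of Tfap2c, is required in trophoblast stem cells and acts in primordial germ cells and in naive pluripotent cells as well. The gene lies on the plus strand at chr2:172549593-172558622. Tfap2c was at 159, 177 and 249 CPM in the ESC libraries and at 33.8, 37.7 and 31.3 in d2-Control. The d2-Atg7 KO libraries held 51.3, 54.7 and 51.5 CPM. At day 4 the values were 28.1, 26.4 and 27.3 CPM in control and 23.4, 23.6 and 21.5 in KO libraries. All ESC libraries lay above every later library, and at day 2 all KO libraries lay above all control libraries, while at day 4 all KO libraries lay below them. In control cells Tfap2c fell by 2.51 ± 0.13 from ESC to day 2 (edgeR adjusted p = 5.65e-11). Its further fall of 0.33 ± 0.13 to day 4 (edgeR adjusted p = 0.0327) no longer passed in 5 of the 6 refits without 1 library, nor under RLE or upper quartile scaling. KO cells exceeded control cells by 0.62 ± 0.12 at day 2 (edgeR adjusted p = 0.000899). At day 4 the difference was -0.25 ± 0.13 (edgeR adjusted p = 0.155, 95% interval -0.53 to 0.03), and the change of the KO difference between the days, -0.87 ± 0.18, passed (edgeR adjusted p = 0.00159).

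AP-2 alpha, encoded by Tfap2a, acts in trophoblast, neural crest and surface ectoderm. Its gene is on the minus strand at chr13:40715302-40738376. Tfap2a was at 7.19, 6.9 and 2.77 CPM in ESCs, 3.18, 3.31 and 2.9 in d2-Control, 6.64, 5.41 and 6.43 in d2-Atg7 KO, 4.15, 3.38 and 3.83 in d4-Control, and 4.61, 5.59 and 4.5 in d4-Atg7 KO libraries. The third ESC library was as low as the d2-Control libraries, and KO libraries lay above control libraries at both days without overlap. Tfap2a was higher in KO cells by 0.98 ± 0.25 at day 2 (edgeR adjusted p = 0.0057). At day 4 the difference was 0.37 ± 0.26 (edgeR adjusted p = 0.287, 95% interval -0.18 to 0.92), and the change of that difference from day 2, -0.6 ± 0.36, missed the threshold (edgeR adjusted p = 0.212). It passed without the libraries that stand apart in fibroblast RNA (-0.7, edgeR adjusted p = 0.0187) and in a fit of only the groups compared (-0.63, edgeR adjusted p = 0.0265), with a range of 0.0187 to 0.903 over 23 alternatives. Fibroblast genes were also higher in d2-Atg7 KO than in d2-Control libraries, 5 of the 10 having risen, among them Col1a1 by 1.24 ± 0.38. With the fibroblast score as a covariate the day 2 difference of Tfap2a was 0.51 (edgeR adjusted p = 0.0933); over the 17 alternatives the adjusted p ranged from 1.94e-05 to 0.214. Exons of 3 annotated antisense genes overlap those of Tfap2a, by 7.75%, 5.4% and 1.49% of its exon length, and how strand was handled in the counting was not given in the sources used here; Gm26688, the antisense gene with the largest overlap, held 6 counts over all libraries.

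**Figure D3:**
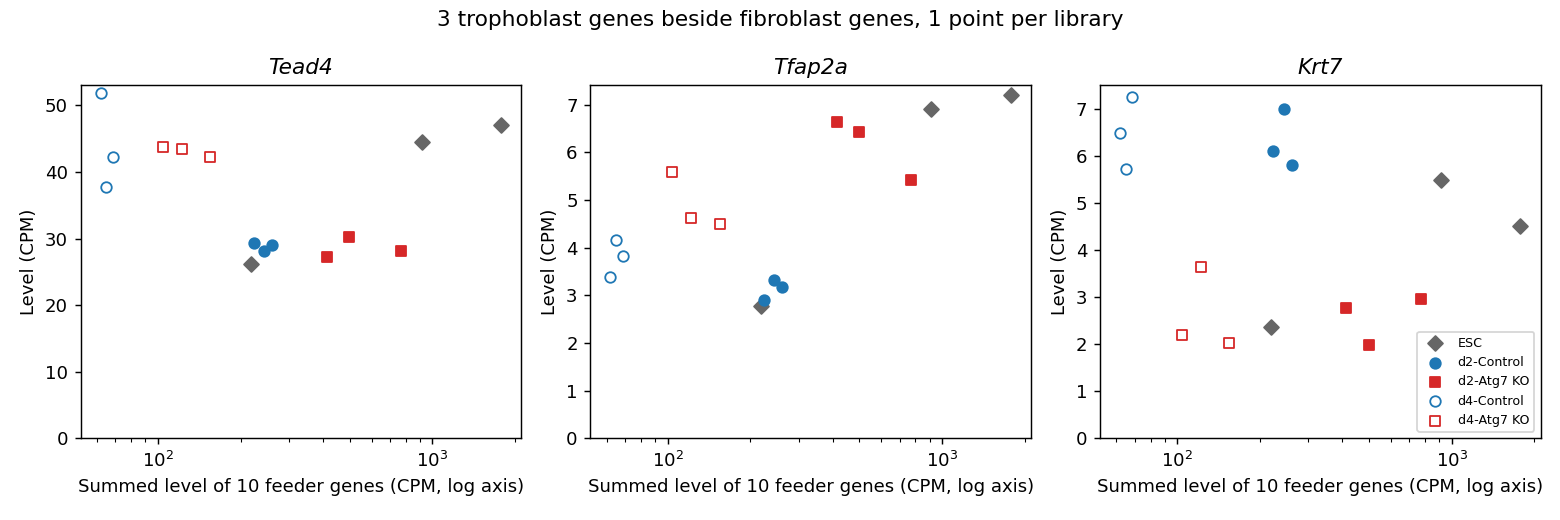
Level of Tead4, Tfap2a and Krt7 (vertical axes, CPM) against the summed level of 10 fibroblast genes (horizontal log axis, CPM), 1 point per library, with markers for the 5 groups. ESC replicate 3, at 219 CPM of fibroblast genes, has the lowest level among the ESC libraries of all 3 members, and d2-Atg7 KO libraries lie to the right of d2-Control libraries.

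GATA3 is switched on in the outer cells of the morula alongside CDX2. Its gene is on the minus strand at chr2:9857078-9890034. Gata3 was at 3.43, 5.75 and 3.83 CPM in ESCs and 16.2, 18.8 and 16.7 in d2-Control, against 8.87, 9.4 and 9.6 in d2-Atg7 KO. It returned to 5.17, 5.59 and 5.54 CPM in d4-Control and 3.46, 4.09 and 2.94 in d4-Atg7 KO libraries. Day 2 exceeded day 4 in both genotypes and day 0 in control cells, and KO libraries were below control libraries without overlap at both days. In control cells Gata3 rose by 1.99 ± 0.17 to day 2 (edgeR adjusted p = 2.45e-08). It then fell by 1.67 ± 0.16 to day 4 (edgeR adjusted p = 1.46e-07). Between KO and control cells the log2 difference was -0.89 ± 0.15 at day 2 (edgeR adjusted p = 0.000246). At day 4 the log2 difference was -0.63 ± 0.18 (edgeR adjusted p = 0.0121), and this call was lost without d4-Atg7 KO replicate 3 (-0.52, edgeR adjusted p = 0.0599, with a range of 0.00487 to 1 over the 17 alternatives). Annotated antisense exons cover 3.9% of the exons of Gata3 and 1.09% of those of Krt7. Exons of 9230102O04Rik, a protein-coding gene on the same strand as Gata3, share 1.94% of the Gata3 exons, and that gene held 4 counts over all libraries. A small part of the reads of Gata3 and Krt7 therefore cannot be assigned with certainty. For Gata3 the change of the difference between the days was 0.26 ± 0.24 (edgeR adjusted p = 0.421, 95% interval -0.25 to 0.77).

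GATA2 works in trophoblast and in blood precursors. Its gene is on the plus strand at chr6:88193891-88207032. Gata2 was at 2.75, 1.49 and 1.38 CPM in ESCs, 1.17, 1.04 and 0.648 in d2-Control, 0.595, 0.25 and 0.471 in d2-Atg7 KO, 3.85, 2.48 and 2.41 in d4-Control, and 1.09, 0.749 and 0.652 in d4-Atg7 KO libraries. Its day 2 libraries lay below its day 4 libraries in both genotypes, the opposite of Gata3, and the KO libraries were below the control libraries at each day, by a narrow gap at day 2. Gata2 rose from day 2 to day 4 in control cells by 1.63 ± 0.34 (edgeR adjusted p = 0.000512). The KO difference was -1.8 ± 0.36 at day 4 (edgeR adjusted p = 0.000944). At day 2 it was -1.11 ± 0.42 (edgeR adjusted p = 0.0413), a call that rests on 29 counts in all in the KO group against 58 in the control group. This call was lost without d2-Control replicate 1 or 2 or d2-Atg7 KO replicate 2 or 3 (-1.18 to -0.82), and without both libraries that stand apart in fibroblast RNA (-0.82, edgeR adjusted p = 0.126; the range over the 17 alternatives was 0.0114 to 0.349). Of the 7 paralogues of the AP-2 and GATA members, 4 were tested. Tfap2e and Gata1 fell at day 2, by 1.48 ± 0.41 and 0.67 ± 0.25, and at day 4 Gata1 fell by 1.15 ± 0.27 while Gata6, a primitive endoderm factor, rose by 0.76 ± 0.14.

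CDX2 and ELF5, the factors that define trophoblast stem cells, were close to the limit of detection. Cdx2 (minus strand, chr5:147300805-147307270) had 60 counts in all 15 libraries together. It had 2, 2 and 1 counts in ESCs, 2, 10 and 8 in d2-Control, 1, 1 and 9 in d2-Atg7 KO, 5, 9 and 4 in d4-Control, and 5, 1 and 0 in d4-Atg7 KO libraries. Elf5 (plus strand, chr2:103411688-103450989) had 69, as 1, 5 and 2 in ESCs, 3, 8 and 19 in d2-Control, 0, 0 and 4 in d2-Atg7 KO, 4, 2 and 12 in d4-Control, and 1, 4 and 4 in d4-Atg7 KO libraries. Single libraries carried much of each group's sum, and KO and control libraries overlapped for both genes at both days. Each fell short of the filter, which asks for 0.605 CPM in at least 3 libraries and which Cdx2 passed in 1 and Elf5 in 2. With no filter, the KO difference of Elf5 at day 2 was -2.85 ± 0.96 (edgeR adjusted p = 0.0215) from 30 against 4 counts, and that at day 4 was -0.98 ± 0.89 (edgeR adjusted p = 0.468). Cdx2 gave -0.94 ± 0.82 and -1.57 ± 0.93 (edgeR adjusted p = 0.431 and 0.228). Neither factor had more than 30 counts in any group, so all but large differences in them were hardly detectable at this depth. The Elf5 difference that passed at day 2 without the filter rests on these few counts.

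HAND1 is a basic helix-loop-helix factor of trophoblast giant cells and of extraembryonic and cardiac mesoderm. Its gene is on the minus strand at chr11:57828705-57832818. Hand1 was at 0, 0 and 0.264 CPM in the ESC libraries, 5.52, 4.2 and 3.85 in d2-Control, 0.347, 0.791 and 0.386 in d2-Atg7 KO, 4.27, 9.59 and 8.3 in d4-Control, and 0.729, 1.56 and 1.11 in d4-Atg7 KO libraries. Every control library of days 2 and 4 stood above every KO and ESC library. In control cells Hand1 rose by 5.55 ± 0.65 to day 2 (edgeR adjusted p = 8.38e-07), a fitted value that rests on 4 counts in the ESC group, all in replicate 3; without that library it was 9.37. Hand1 was 8.65-fold lower in KO than in control cells at day 2, a log2 difference of -3.11 ± 0.43 (edgeR adjusted p = 3.77e-05). At day 4 it was 6.45-fold lower, a log2 difference of -2.69 ± 0.4 (edgeR adjusted p = 7.32e-05). Both calls held in all 17 alternatives, with values from -3.59 to -2.85 at day 2 and from -3 to -2.41 at day 4. Hand1 had a larger absolute change than 99.7% of tested genes at day 2 and 99.4% at day 4.

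ESX1 is an X-linked homeobox factor of the placental labyrinth. Its gene is on the minus strand at chrX:137115397-137122083. Esx1 was at 4.43, 8.59 and 8.44 CPM in ESCs, 47.7, 40.3 and 47.7 in d2-Control, 21.7, 21.8 and 26.1 in d2-Atg7 KO, 52.3, 53.5 and 54.8 in d4-Control, and 47.9, 42 and 44.4 in d4-Atg7 KO libraries. No ESC library approached the later groups, and KO libraries were below control libraries at both days without overlap. In control cells Esx1 rose by 2.66 ± 0.16 to day 2 (edgeR adjusted p = 4.55e-10), while the difference from day 2 to day 4 was 0.24 ± 0.13 (edgeR adjusted p = 0.116). That difference passed without the libraries that stand apart (0.25, edgeR adjusted p = 0.0366) and with only the groups compared (0.26, edgeR adjusted p = 0.00394), with a range of 0.00394 to 1 over the 17 alternatives. In KO cells it still rose between the days, by 0.95 ± 0.14 (edgeR adjusted p = 1.83e-05), which became 0.51 with the fibroblast covariate (edgeR adjusted p = 0.0543, against 1.3e-11 at the lowest over the 17 alternatives). Esx1 fell in KO relative to control cells by 0.96 ± 0.14 at day 2 (edgeR adjusted p = 5.1e-05). At day 4 the difference was -0.26 ± 0.14 (edgeR adjusted p = 0.146, 95% interval -0.56 to 0.04), and the change of the KO difference between the days was 0.7 ± 0.19 (edgeR adjusted p = 0.00948). X-chromosome genes had a median log2 difference of 0.38 between d2-Control and ESC libraries (605 genes), in the same direction as Esx1 and smaller; in the KO comparisons the X median was -0.1 and -0.11.

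Keratin 7 (Krt7) is an intermediate filament protein of simple epithelia and trophoblast. Its gene is on the plus strand at chr15:101411043-101430313. Krt7 was at 4.5, 5.48 and 2.37 CPM in ESCs, 5.8, 6.99 and 6.09 in d2-Control, 2.77, 2.95 and 1.97 in d2-Atg7 KO, 5.71, 6.49 and 7.24 in d4-Control, and 3.64, 2.19 and 2.02 in d4-Atg7 KO libraries. Control libraries of both days lay above all KO libraries, and the ESC libraries lay below all control libraries, with replicate 3 the lowest of the 3 and inside the KO range. The KO difference of Krt7 was -1.29 ± 0.26 at day 2 (edgeR adjusted p = 0.00103). At day 4 it was -1.3 ± 0.28 (edgeR adjusted p = 0.00144), and the change between the days was -0.01 ± 0.38 (edgeR adjusted p = 0.99, 95% interval -0.81 to 0.79). The rise from ESC to day 2 in control cells, 0.61 ± 0.26, had an edgeR adjusted p of 0.0458 and was lost without ESC replicate 3 (0.34, edgeR adjusted p = 0.155) and without any 1 of the 3 d2-Control libraries (0.54 to 0.67); the adjusted p ranged from 0.00298 to 0.462 over the 17 alternatives.

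**Figure D4:**
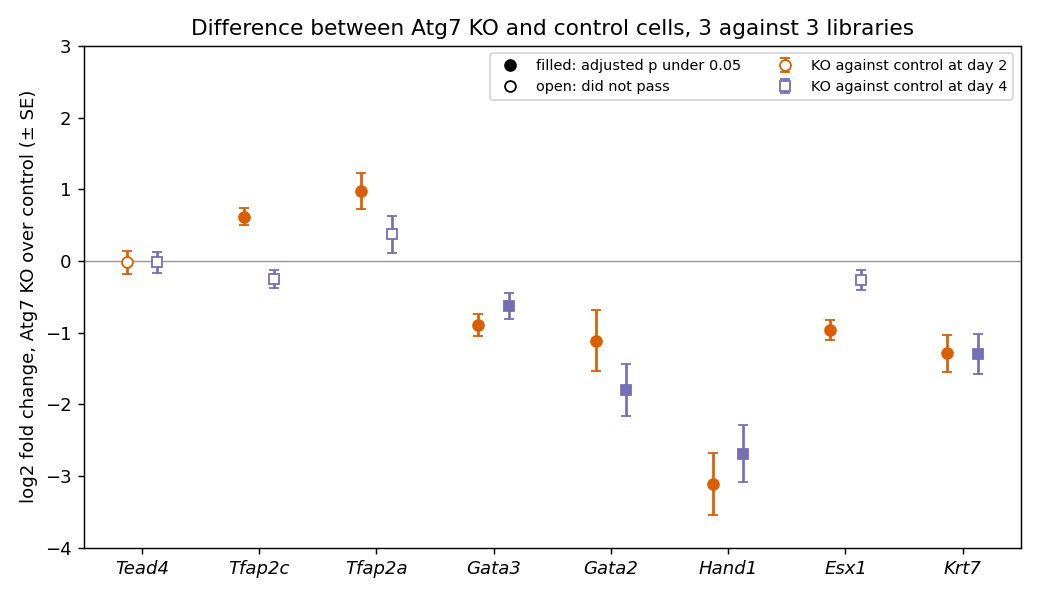
Log2 fold change of Atg7 KO over control cells (vertical axis, ± standard error) for the 8 tested members at day 2 (circles) and day 4 (squares), from the fit of all 15 libraries; filled symbols passed at an adjusted p of 0.05 and open symbols did not. Hand1 lies lowest at -3.11 and -2.69, Tead4 is at -0.02 on both days, and Tfap2c is above 0 at day 2 and below 0 at day 4.

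Counted over the members, the d2-Atg7 KO comparison called 7 of 8 tested genes, 5 of them lower and 2 higher, where 41.8% of all tested genes were called. Their median log2 difference was -0.93 against -0.01 over all genes, and their median absolute difference 0.97 against 0.29. At day 4, 4 of 8 were called, all lower, against 37.6% of all genes, and the median was -0.44 against -0.01. The KO and control libraries did not overlap for 7 of the 8 at each day, where 61.3% of all genes did so at day 2 and 54.9% at day 4. Without ESC replicate 3 and d2-Atg7 KO replicate 2, 9 members were tested, of which 7 passed at day 2 (2 higher, 5 lower) and 6 at day 4, where Tfap2c (-0.25, edgeR adjusted p = 0.0122) and Esx1 (-0.26, edgeR adjusted p = 0.0455) passed as well; over the 17 alternatives at day 4 the adjusted p ranged from 0.0122 to 1 and from 0.00451 to 1. In that refit 7567 of 15992 genes passed at day 2 and 7461 of 15992 at day 4. The day 2 calls of that refit were not for the same members as in the fit of all libraries. Gata2 did not pass in it (-0.82, edgeR adjusted p = 0.126), and the lower members included Elf5, which is limited by counts. Elf5 reached the filter level of 0.605 CPM in 2 libraries and Cdx2 in 1. In the fit of all libraries, the change of the KO difference between the days passed for 2 of 8, Tfap2c and Esx1, against 36.1% of all genes. Over all genes, 18.6% of these changes were called higher and 17.6% lower.

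In control cells all 8 tested members passed between ESC and day 2. Hand1, Esx1, Gata3 and Krt7 rose and Tfap2c, Gata2, Tfap2a and Tead4 fell, where 70.5% of all genes passed, 35.6% higher and 34.9% lower, and the groups did not overlap for 6 of the 8 against 69% of all genes. Several of these calls rested on single libraries. Gata2 (-0.99 ± 0.36, edgeR adjusted p = 0.0217) was at -0.61 without ESC replicate 1 and -0.76 without d2-Control replicate 3 and did not pass in either, Tfap2a (-0.84 ± 0.26, edgeR adjusted p = 0.0085) did not pass without ESC replicate 1 (-0.63), and Tead4 did not pass without ESC replicate 1, ESC replicate 2 or d2-Control replicate 2 (-0.42 to -0.29). With the fibroblast covariate the values were -0.49 for Gata2, -0.07 for Tfap2a and 1.28 for Krt7, of which Krt7 passed. From control day 2 to day 4, 4 of 8 passed, Gata2 and Tead4 higher and Gata3 and Tfap2c lower (background 68.4%, 33.9% higher and 34.6% lower), and the groups did not overlap for 6 of 8 (background 76.2%). Hand1, at 0.71 ± 0.34 (edgeR adjusted p = 0.0727), passed without d4-Control replicate 1 (0.99), with only the groups compared (0.73, edgeR adjusted p = 0.0103) and without the libraries that stand apart (0.71, edgeR adjusted p = 0.0125; range 0.0103 to 0.904 over the 17 alternatives). Without those libraries 6 of 9 tested members passed between these days, beside 11712 of 15992 genes. With the fibroblast covariate Tfap2c was at -0.82 and Tead4 at 1.24, and Tfap2a rose by 1.19 (edgeR adjusted p = 0.00549, range 0.00549 to 1) where its value was 0.28 ± 0.27 without it. From ESC to control day 4, 4 of 8 passed (background 71.7%, 36.2% higher and 35.6% lower), and 4 of 8 did not overlap (background 69.7%). Hand1 rose by 6.26 ± 0.62 (10.08 without ESC replicate 3), Esx1 by 2.9 ± 0.16 and Krt7 by 0.66 ± 0.27, and Tfap2c fell by 2.84 ± 0.13. Krt7 did not pass there without ESC replicate 3, d4-Control replicate 2 or d4-Control replicate 3 (0.38 to 0.66), while Gata2 passed without ESC replicate 1 (1.02), Gata3 without ESC replicate 2 (0.58) and Tfap2a without ESC replicate 3 (-0.89). With the fibroblast covariate Hand1 was at 5.45 (edgeR adjusted p = 0.0506), Tead4 rose by 1.32, and Krt7 was at 2.11. From KO day 2 to KO day 4, 4 of 8 passed (background 63.2%, 31.2% higher and 32% lower), and 5 of 8 did not overlap (background 73.3%). Esx1 and Tead4 rose, Gata3 fell by 1.4 ± 0.17 and Tfap2c fell by 1.2 ± 0.13. Hand1, at 1.13 ± 0.51 (edgeR adjusted p = 0.0611), passed without d2-Atg7 KO replicate 2 (1.61) or d4-Atg7 KO replicate 1 (1.37), and also without both libraries that stand apart (1.61), by DESeq2 (1.17) and with only the groups compared (1.13). Without the libraries that stand apart 6 of 9 tested members passed, beside 10412 of 15992 genes. Tfap2a was among the 6 (-0.41, edgeR adjusted p = 0.0289, range 0.0289 to 1). Gata2, at 0.94 ± 0.44 (edgeR adjusted p = 0.0712), passed with the fibroblast covariate (1.52, edgeR adjusted p = 0.038) and with only the groups compared (0.95, edgeR adjusted p = 0.0446) and with the replicate block (0.92, edgeR adjusted p = 0.0254), with a range of 0.0254 to 0.296 over the 17 alternatives. Tead4 was at 1.19 with that covariate. Comparisons that use the same group share its libraries and are not independent.

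Wider trophoblast lists were examined beside the members. Of 16 other early trophoblast genes, all tested, 10 fell and 2 rose in KO cells at day 2, and 6 fell and 1 rose at day 4. Over all genes 21.4% were lower and 20.4% higher at day 2, and 18.1% lower and 19.5% higher at day 4. Id2, an inhibitor of basic helix-loop-helix factors, fell by 1.27 ± 0.11 and 1.26 ± 0.14 at the 2 days. Krt8 and Krt18, the keratins of early trophoblast and other simple epithelia, were at 64.5 ± 3.85 and 67.1 ± 1.88 CPM in d2-Control against 32.6 ± 1.54 and 36.1 ± 3.07 in d2-Atg7 KO libraries, and both fell at both days. Of 17 genes of differentiated trophoblast, 10 were tested, of which 7 fell and none rose at day 2 and 4 fell and none rose at day 4, beside the same shares. The paternally expressed placental gene Peg10, needed for placenta formation, fell by 1.27 ± 0.13 at day 2, from 709 ± 17.8 to 293 ± 9.35 CPM, and by 0.44 ± 0.12 at day 4. The imprinted growth regulator gene Phlda2 fell by 1.28 ± 0.2 at day 4. Synb and Prl3b1, markers of syncytiotrophoblast and giant cells, were at 0 in all groups, and Tpbpa, Prl3d1 and Ctsq had at most 1 count in any group. Other genes of that list were detected, Gcm1 with 65, Syna with 65 and Prl2c2 with 64 counts in the d2-Control group, and Prl2c2 with 127 and Hsd3b6 with 62 in the d4-Control group.

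Markers of other cell types that share members with trophoblast moved in more than one direction, and their counts stand beside 41.8% of all genes called at day 2 and 37.6% at day 4. Of 6 germ cell precursor genes, which include partners of Tfap2c, 3 rose and 1 fell in KO cells at day 2; Prdm1 rose by 1.13 ± 0.13 and Prdm14 by 1.04 ± 0.18. At day 4, 3 rose and 2 fell, with Dppa3 lower by 3.16 ± 0.17 on the log2 scale (a fall). Of 11 amnion and mesoderm genes, which share Hand1 with trophoblast, 7 were tested and 2 fell at day 2, Kdr by 2 ± 0.4 and Bmp4 by 0.97 ± 0.3, and 1 at day 4, Kdr by 0.97 ± 0.26. None rose at either day, and the summed level of this list was between 26.2 and 28.6 CPM in d2-Control and between 15.5 and 17.7 in d2-Atg7 KO libraries. Bmp4 made up most of that fall, with means of 16.9 and 8.62 CPM, and the median log2 difference of the list was -0.07 at day 2. Surface ectoderm genes, which share Tfap2a and Gata3 with trophoblast, had 4 tested members, of which 3 fell at each day: Grhl2 by 0.9 ± 0.1 and 0.47 ± 0.09, Grhl3 by 0.51 ± 0.13 and 0.52 ± 0.13, and Krt5 by 1.77 ± 0.52 and 2.06 ± 0.47. Their summed level was between 69.2 and 72.6 CPM in d2-Control and between 42.1 and 44.7 in d2-Atg7 KO libraries. Primitive endoderm genes numbered 8, of which 4 rose at day 2 and 2 at day 4 and none fell. Fibroblast genes rose for 5 of 10 at day 2 and 1 of 10 at day 4. The part of any of these cell types in the members' differences was not tested.

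Genes that hold the trophoblast programme back in embryonic stem cells formed a list of 13, all tested. At day 2, 4 rose and 4 fell in KO cells, where 41.8% of all genes were called, with a median of -0.04. The homeobox gene Nanog, the pluripotency factor at the naive end of the transition, rose by 1.13 ± 0.1 (edgeR adjusted p = 5.08e-07), while the methyltransferase genes Dnmt3a and Dnmt3b fell by 0.33 ± 0.08 and 0.78 ± 0.2. At day 4, 10 of 13 rose and none fell, where 19.5% of all genes were higher and 18.1% lower, with a median of 0.32 against -0.01 over all genes. Trim28, the corepressor that brings the methyltransferase SETDB1 to chromatin, rose by 0.77 ± 0.05 (edgeR adjusted p = 8.97e-08), and Pou5f1, whose product OCT4 represses Cdx2 in the inner cell mass, rose by 0.42 ± 0.05 (edgeR adjusted p = 1.66e-05). In control cells 11 of the 13 fell between ESC and day 4, where 35.6% of all genes fell, among them Pou5f1 by 1.32 ± 0.05 on the log2 scale, while Dnmt3a rose by 2.8 ± 0.08.

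**Figure D5:**
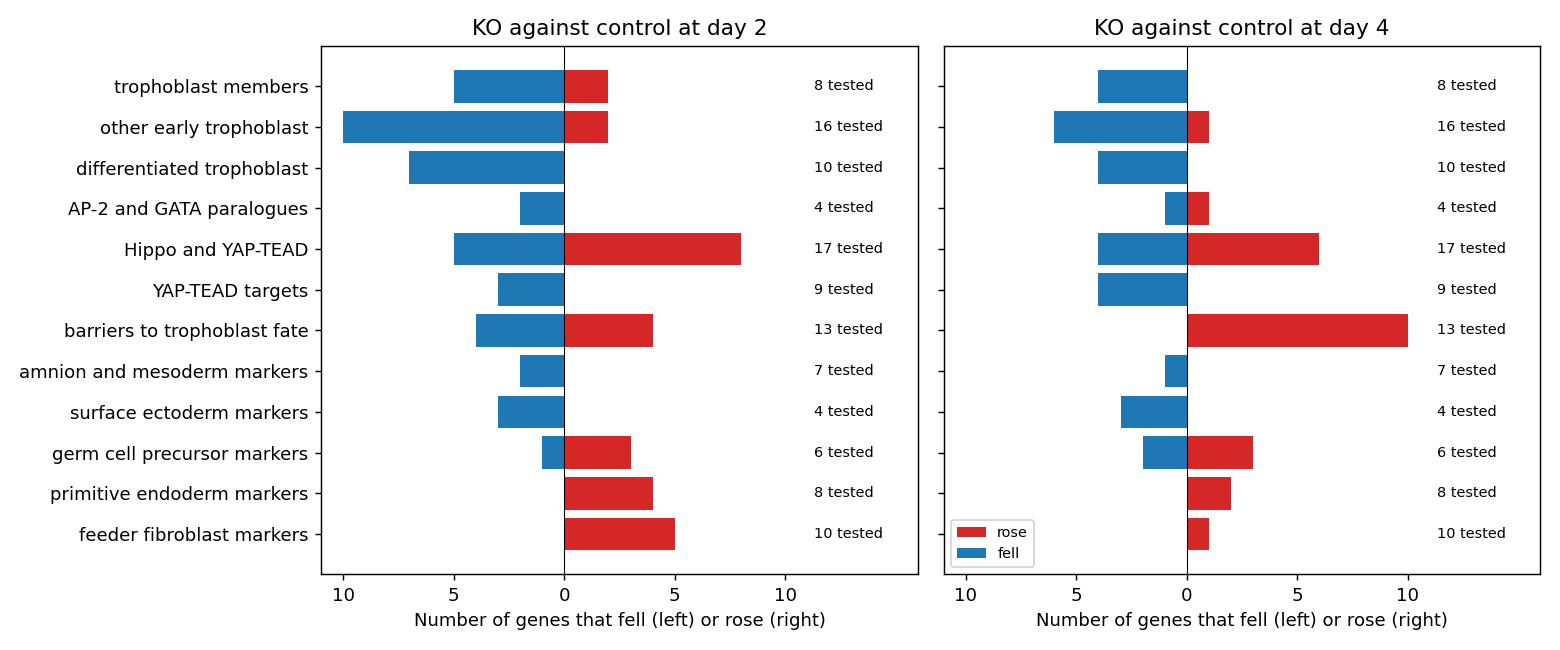
Number of genes of each list that rose (red, to the right) or fell (blue, to the left) in Atg7 KO against control cells at day 2 (left panel) and day 4 (right panel) at an adjusted p of 0.05, with the number tested beside each bar. The 2 trophoblast lists beside the members hold 10 and 7 fallen genes at day 2, and the barrier list holds 10 risen genes at day 4.

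The genes most like each member across all 15 libraries were taken from 12631 tested genes with a mean of at least 1 CPM, by Pearson correlation of log2 CPM. The points share the same libraries and the strong change from ESC to day 2, so these values describe a pattern only. Tfap2c was most like Helb (r = 0.985), Esx1 most like Zbtb46 (r = 0.984), Gata3 most like Mlxipl and Aplp1 (r = 0.983 each) and Hand1 most like Ripk4 (r = 0.969). The others had lower best values, Tead4 with Zfp428 (r = 0.959), Gata2 with Slfn10-ps (r = 0.923), Krt7 with Nnat (r = 0.904) and Tfap2a with Cwf19l2 (r = 0.888). Between members over the same 15 libraries, Hand1 and Esx1 had r = 0.87, Tfap2c and Esx1 r = -0.95, and Gata2 and Gata3 r = -0.35.

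Neighbouring genes on the chromosome were compared with the members in the KO at day 2. The neighbours of Gata2 and Esx1 that could be tested, Rpn1 and Fam199x, differed by -0.02 ± 0.05 and -0.09 ± 0.1 and did not pass. Beside Gata3, Taf3 fell by 0.2 ± 0.06 and Celf2, 2460 kb away, by 0.71 ± 0.1, and beside Hand1, Sap30l fell by 0.52 ± 0.16 while Larp1 differed by 0.02 ± 0.1. Gcnt2, 122 kb from Tfap2a, rose by 0.73 ± 0.07 at day 2 (edgeR adjusted p = 1.27e-06), as Tfap2a did, and fell by 0.27 ± 0.07 at day 4. Tulp3 beside Tead4 rose by 0.47 ± 0.07 where Tead4 itself did not pass, and Tspan9 on its other side differed by -0.09 ± 0.11. Bmp7 beside Tfap2c differed by 0.36 ± 0.2 and Cat beside Elf5 by 0.12 ± 0.08, and neither passed. The medians of the KO difference over the chromosomes that carry members lay between -0.11 and 0.09 at both days.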

How the data were processed

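The authors deposited 15 tables of whole-number read counts, each listing gene symbols for a single library. The submitters' processing notes name STAR, StringTie, featureCounts and DESeq2 and the builds mm10 and GRCm38. Versions, annotation, strand setting and handling of shared reads were not given in the sources used here. Libraries of a group differed by more than sampling noise (chi-square per degree of freedom 3.2 to 31.78 over genes reaching 20 counts), and each was taken as 1 sample.

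Genes were kept by filterByExpr (minimum count 10, minimum total 15) and tested with edgeR 4.0.16 in R 4.3.3, with TMM scaling, a mean per group and Benjamini-Hochberg adjustment over 15696 genes at 0.05. Intervals are 95% intervals of the same fit. Gene positions and exon lengths are from GENCODE M21 on GRCm38, promoters from RefSeq. On simulated counts for KO against control at day 2 (15696 genes) 63.6%, 80.3% and 96.9% of 1.5-, 2- and 4-fold changes were recovered. The members and lists were chosen with earlier results of these data known. All members are named, as are, from every other list, up to 2 risen and 2 fallen genes of smallest p in the KO comparisons and control day 4 against ESC, some of the genes most like each member, and its tested neighbours. Krt5, Grhl3, the placental genes given by counts and other single genes of counts of 5 or fewer were chosen after their values were seen. Alternatives were other scalings (RLE, upper quartile), no filter and a filter at 1 CPM in 3 libraries, DESeq2 1.42.0, limits on groups, a replicate block, a 1.5-fold test, a fibroblast score (mean log2 CPM of 3 collagen genes) as covariate, 13 libraries, chromosome 18 genes dropped, and leaving out each library.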

Additional observations from a re-analysis of the deposited data

Results flagged for a closer look

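The KO difference changed between the days for 2 of 8 tested members by the test of the difference itself, where 36.1% of all tested genes passed. For Tfap2c, the difference at day 4 minus that at day 2 was -0.87 ± 0.18 (edgeR adjusted p = 0.00159): all 3 KO libraries were above all control libraries at day 2 and below them at day 4. For Esx1 it was 0.7 ± 0.19 (edgeR adjusted p = 0.00948): the KO libraries were below the control libraries at both days, by less at day 4. Both passed in 22 of the 23 alternatives and missed in the test against a 1.5-fold change.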

How the results depend on the processing

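Of the single-member results, 355 kept direction and call in refits without 1 library, 23 lost and 6 gained the call; in the other alternatives 559 kept both, 32 lost and 24 gained the call, and 1 reversed, Tead4 in control day 2 against ESC with the fibroblast covariate (0.08). The cause was not tested. Testing against a 1.5-fold change, a stricter null by construction, left 4 members from ESC to control day 2 (8 in the fit reported), 2 from control day 2 to day 4 (4), 3 for KO at day 2 (7), 2 for KO at day 4 (4) and 0 for the change of the KO difference (2); over all genes it left 5273, 4794, 5792, 847, 614, 3655 and 846 in place of 11072, 10741, 11257, 6556, 5903, 9922 and 5674, in the order of control day 2 against ESC, control day 4 against day 2, control day 4 against ESC, KO at day 2, KO at day 4, the 2 KO days compared, and lastly the change of the KO difference. From ESC to control day 2 the members called were 4 with only the groups compared and 5 with the fibroblast covariate. That covariate left 7113 genes from ESC to control day 4. The causes of these shifts were not tested. Without 1 library the members called ranged from 5 to 7 for ESC to control day 2, the 5 without ESC replicate 1, from 3 to 4 for control day 2 to day 4, 3 to 5 for ESC to control day 4, 6 to 7 for KO at day 2, 3 to 4 for KO at day 4 and 4 to 5 between KO days, and were 2 for the change of the KO difference. The labels' replicate numbers did not pair libraries: same-numbered libraries correlated between -0.095 and 0.081 in their deviations, 0 of 30 over 0.1, and 7 of 15 libraries correlated best with their own number. With the number as a replicate block Gata2 passed from ESC to control day 4 (0.66, edgeR adjusted p = 0.0294) and between KO days (0.92, edgeR adjusted p = 0.0254), and no other member's call changed. Members under about 1 CPM, Cdx2 and Elf5 throughout and Gata2 and Hand1 in some groups, are limited by counts.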
